A study of Mus musculus with 15 samples.

Results

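This report is on 9 genes that mark neural stem cells and glial progenitors, namely Sox2, Sox9, Nes, Prom1, Olig1, Olig2, Msi1, Nfia and Sox10, in syngeneic mouse brain tumors and in naïve brain. The genes were taken by name out of the 46679 genes of the count table. All 9 were found by their Ensembl identifiers and all 9 passed the filter on low counts, as did 17481 genes in all.

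SOX2 is a transcription factor that keeps neural stem cells undifferentiated, and it is retained in many gliomas. Nestin (Nes) is the intermediate filament of those stem cells, prominin-1 (Prom1, CD133) is a membrane protein of their protrusions, and Musashi-1 (Msi1) is an RNA-binding protein that represses translation in them. SOX9 and NFIA act at the switch from making neurons to making glia. OLIG1 and OLIG2 are basic helix-loop-helix factors of the oligodendrocyte lineage, and SOX10 follows them there and drives myelin genes as the cells mature.

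RNA was sequenced from naïve brain and from tumors of the lines CT2A, GL261, 005 and Mut3 at end stage in C57BL/6 mice, with 3 mice in each of the 5 groups. Mice that received cells were 6 to 8 weeks old, and Mut3 was implanted as 500000 cells and the other lines as 100000 cells, in the right hemisphere. Every tumor line had been transduced with GFP and Firefly luciferase (Fluc), which naïve brain lacks, and each tumor group is a single line. CT2A (wild type for p53) and GL261 (mutant for K-ras and p53) were induced with methylcholanthrene and had been kept in serum. The 005 line carries activated H-ras and AKT on a p53+/- background, and Mut3 has inactivated NF1 and p53. Both of these had been kept without serum, with EGF and FGF-2. The tissue was bulk, so every value mixes tumor cells with the cells of the host brain, and fewer cells of a type cannot be told apart from less RNA per cell.

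In the GENCODE M21 annotation of GRCm38, Sox9 lies at chr11:112782224-112787760 and Nes at chr3:87971078-87980451, both on the plus strand. Prom1 lies at chr5:43993620-44102032 on the minus strand and Msi1 at chr5:115429599-115455698 on the plus strand. Olig2 lies at chr16:91225457-91228677 and Olig1 at chr16:91269772-91271933, Nfia at chr4:97772734-98118874 and Sox2 at chr3:34650405-34652461, all on the plus strand. Sox10 lies at chr15:79154908-79165240 on the minus strand.

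Total counts ran from 3105119 to 13130158 per library, and 3 counts, the lowest level taken as detectable, equalled 0.228 to 0.966 CPM (counts relative to the library total, times a fixed constant). This floor is before TMM normalisation, whereas the other CPM values are after it, so the floor is only a rough guide to them. Naïve replicate 2 had the lowest total, and 8 of the 9 genes were higher in it than in the other naïve libraries. Its summed level of 10 myelinating oligodendrocyte genes was 4380 CPM, against 1770 and 1840 CPM in the other naïve libraries. In 005 replicate 3, 10 neuron genes summed to 4040 CPM, against 653 and 206 CPM in the other 005 tumors and 4940 to 6730 CPM in naïve brain. The mitochondrial share of a library was 24.0% and 21.5% in naïve replicates 1 and 3 and lower in naïve replicate 2, whereas it was 3.48% to 7.59% in CT2A, 4.33% to 11.3% in GL261 and 5.36% to 5.96% in Mut3, and in 005 6.42%, 4.6% and 17.8% in replicates 1, 2 and 3. The part of this in the differences from naïve brain was not tested. Calls on the 9 genes that changed without naïve replicate 2 or 005 replicate 3 are named beside the results. The neuron genes summed to 234 to 1150 CPM in CT2A, 809 to 2030 CPM in GL261 and 51.1 to 150 CPM in Mut3, and none of them was at 0 in any whole group.

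The start regions of Sox2, Nes and Olig2 are shown, the 3 genes for which one could be taken. The windows lie on the plus strand of GRCm38.p6 as RefSeq gives it, end before the first base of the gene's own transcripts, and are written 5′ to 3′. Of the 9 genes, 5 had an entry in the RefSeq promoter table, and 3 kept a window upstream of both annotated starts. Capitals mark matches, on either strand, to GGGCGG (known as the GC box), to the CCAAT box, to ACAAT (the core of SOX sites) or to TTGGC (a short NFI motif).
Sox2, chr3:34649745-34649994: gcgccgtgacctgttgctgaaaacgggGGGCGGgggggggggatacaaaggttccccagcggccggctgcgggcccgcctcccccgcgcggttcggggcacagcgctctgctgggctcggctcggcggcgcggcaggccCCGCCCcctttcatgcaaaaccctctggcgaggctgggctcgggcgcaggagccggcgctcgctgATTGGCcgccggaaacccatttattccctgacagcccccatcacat
Nes, chr3:87970843-87971077: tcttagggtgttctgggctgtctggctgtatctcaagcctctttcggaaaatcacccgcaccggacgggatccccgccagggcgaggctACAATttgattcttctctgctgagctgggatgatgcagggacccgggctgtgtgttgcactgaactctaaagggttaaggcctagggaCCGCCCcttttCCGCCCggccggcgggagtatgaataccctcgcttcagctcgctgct
Olig2, chr16:91225300-91225456: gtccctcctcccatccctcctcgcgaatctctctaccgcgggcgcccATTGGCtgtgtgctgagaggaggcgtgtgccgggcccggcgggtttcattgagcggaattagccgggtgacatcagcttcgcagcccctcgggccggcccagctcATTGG
The Sox2 window held 72.0% G and C with 27 CpG dinucleotides, the Olig2 window 66.9% with 14, and the Nes window 58.7% with 14. In the Sox2 and the Olig2 windows a CCAAT box on the minus strand overlapped a TTGGC motif on the plus strand, and Olig2 had a further CCAAT box, 98 bases before the RefSeq start. Sox2 and Nes had 2 GC boxes each, and Nes had an ACAAT match. A CCAAT box occurred in 33.8% of all 32851 promoter windows of the length of the Sox2 window and in 21.0% of those of the length of the Olig2 window, and TTGGC in 41.5% and 27.3%. A GC box occurred in 32.7% and 30.6% of windows of the Sox2 and Nes lengths, and ACAAT in 26.8% of the latter. No TATAAA or E box (CANNTG) was found in the windows, whereas 12.4% and 66.2% of windows of the Sox2 length held them. These matches describe the letters only.

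Against naïve brain, Nes was higher in all 4 tumors and Sox2 in 3 of them, least firmly in GL261, whereas Olig1, Olig2 and Sox10 were lower in CT2A and variously raised or not called in the other tumors. A gene was called higher or lower at a Benjamini-Hochberg adjusted p under 0.05, over all genes tested with edgeR's quasi-likelihood test, together with a log2 fold change of 1 or more in size. In CT2A, 2 of the 9 genes were higher (Nes and Sox2), where 19.0% of all genes tested were higher, and 5 were lower (Prom1, Msi1, Olig1, Olig2 and Sox10), where 20.2% were lower. In GL261, 4 were higher (Nes, Sox2, Olig2 and Sox10), against 14.6% of all genes tested, and 0 were lower, against 7.77%. Without naïve replicate 1 or 3 or GL261 replicate 1 or 3, Sox10 was the 1 gene left there, and without GL261 replicate 2 Sox2 and Sox10 were left. In 005, Nes was the 1 gene called higher, against 11.6%, and 0 were lower, against 1.05%, while without 005 replicate 3 Sox10 was called lower. In Mut3, 4 were higher (Nes, Sox2, Olig1 and Olig2), against 17.9%, and 0 were lower, against 19.8%. DESeq2 also called 0 lower in GL261, 005 and Mut3, and at an unadjusted p under 0.05 in edgeR there were 1, 0 and 0. Without naïve replicate 2, the lower genes in CT2A went from 5 to 1 (Prom1). Over the 9 genes the log2 fold change had a median of −1.45 (CT2A), 1.3 (GL261), −0.03 (005) and 0.44 (Mut3), beside −0.04, −0.08, 0.01 and 0.11 over all genes tested. The p-values measure the spread between these mice.

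**Figure D1:**
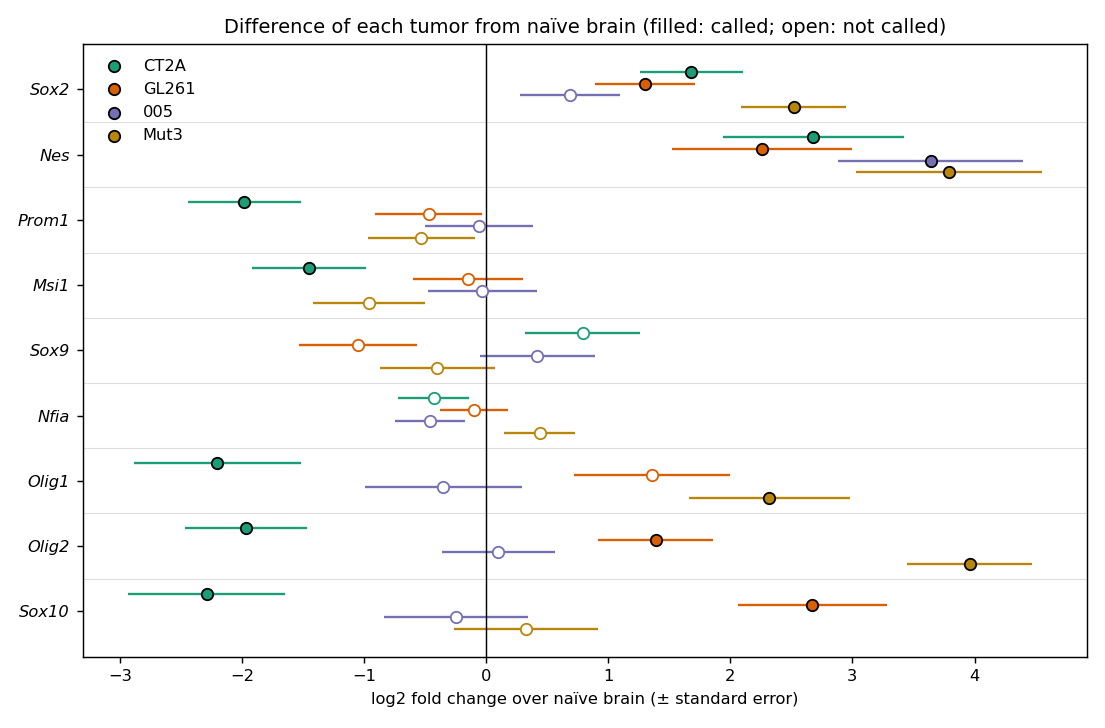
Log2 fold change of each gene in each tumor over naïve brain, with bars of ± 1 standard error from the edgeR fit (3 mice per group); filled points were called and open points were not. Nes lies to the right of 0 in every tumor, while Olig1, Olig2 and Sox10 lie on both sides, from −2.29 for Sox10 in CT2A to 3.96 for Olig2 in Mut3.

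These fold changes are on the TMM scale, and the choice of scale bears on them. On the deposited TPM scale every gene of a tumor stands lower against naïve brain, and the log2 shift was −0.98 for CT2A, −0.81 for GL261, −0.6 for 005 and −0.82 for Mut3 (medians over 14276 genes with a value in every library). Directions that depend on this are named below, and the order of genes within a comparison does not change with it. Values below are CPM after TMM normalisation, given for replicates 1, 2 and 3 in that order.

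Nes was the gene raised in every tumor. Its level was 1.63, 2.99 and 4.60 CPM in naïve brain (from 8, 12 and 17 counts) and 10.7, 21.7 and 25.96 CPM in CT2A. It was 10.4, 10.99 and 22.2 CPM in GL261, 31.6, 74.8 and 7.83 CPM in 005 and 56.7, 51.5 and 17.9 CPM in Mut3. All 12 tumor libraries lay above all 3 naïve libraries, with 005 replicate 3 the lowest of the tumors. The log2 fold change over naïve brain was 2.68 ± 0.74 (SE; adjusted p = 0.0116) in CT2A and 2.26 ± 0.74 (adjusted p = 0.0397) in GL261. It was 3.64 ± 0.76 (adjusted p = 0.00667) in 005, which is 12.5-fold (2.7, adjusted p = 0.032, without 005 replicate 2), and 3.79 ± 0.76 (adjusted p = 0.00182) in Mut3, which is 13.8-fold. Between the 4 tumors Nes was not called different (adjusted p = 0.196), although the group means ran from 14.5 CPM in GL261 to 42.0 CPM in Mut3. The call in GL261 was lost in 8 of the 13 alternatives that could be run, among them the removal of any 1 naïve or GL261 library. The call in CT2A was lost with limma on log2(TPM + 1), in which the scale, the pseudocount and the test all differ, and the call in 005 was lost when the 005 and naïve samples were fitted alone. Nestin is also made by dividing vessel cells. Of 5 pericyte genes, 2 were higher in CT2A (Pdgfrb and Cspg4), 0 in GL261 (1 at an unadjusted p under 0.05, 0 by DESeq2), 2 in 005 (Kcnj8 and Abcc9) and 1 in Mut3 (Cspg4), and their sum ran from 47.7 to 69.0 CPM in naïve brain, CT2A and GL261, from 75.6 to 155 CPM in 005 and from 105 to 201 CPM in Mut3. Cspg4 also marks oligodendrocyte progenitors, and the other 4 genes summed to 36.0 to 80.1 CPM in Mut3 and 69.1 to 146 CPM in 005, against 44.1 to 56.7 CPM in naïve brain. The calls on Kcnj8 and Abcc9 in 005 were lost without any 1 naïve library and without 005 replicate 1 or 2. Cspg4 in CT2A was lost without naïve replicate 1 or 3 or CT2A replicate 3. Abcc9 was also called higher in Mut3 without naïve replicate 1 or Mut3 replicate 2. Of 6 endothelial genes 1 was called (Kdr, higher in Mut3), and it was lost without naïve replicate 1 or 3 or any 1 Mut3 library. Of 5 genes of dividing cells, all 5 (Mki67, Top2a, Ccnb1, Cdk1 and Bub1) were higher in every tumor, with a sum of 111 CPM in 005 replicate 3 against 984 and 1030 CPM in the other 005 tumors. The part of these cells in the Nes result was not tested.

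Sox2 was raised in CT2A, GL261 and Mut3. It stood at 16.1, 36.1 and 13.2 CPM in naïve brain and at 184, 105 and 88.04 CPM in Mut3, where every library was above every library of the other groups. It stood at 50.1, 87.7 and 72.7 CPM in CT2A, 51.4, 44.1 and 65.8 CPM in GL261 and 33.4, 46.5 and 25.8 CPM in 005. The 005 libraries overlapped naïve brain, because naïve replicate 2 was higher than 2 of them. Over naïve brain, the log2 fold change was 2.52 ± 0.43 (adjusted p = 0.000759) in Mut3, 1.68 ± 0.42 (adjusted p = 0.00659) in CT2A and 1.3 ± 0.41 (adjusted p = 0.0356) in GL261. In 005 it was 0.69 ± 0.41 (adjusted p = 0.25). Sox2 differed among the tumors (adjusted p = 0.019), and Mut3 exceeded 005 by 1.83 ± 0.41 on the log2 scale (adjusted p = 0.00847) and GL261 by 1.22 ± 0.41 (adjusted p = 0.0498). The difference from GL261 was lost without any 1 of the 6 libraries compared, and the difference from 005 was lost without Mut3 replicate 1. Without naïve replicate 2, Sox2 was also called higher in 005 (log2 fold change 1.38, adjusted p = 0.0449), and its log2 fold change was 3.26 in Mut3, 2.46 in CT2A and 2.02 in GL261. The call in GL261 was lost in 6 of 14 alternatives, and the call in CT2A in 1, limma on log2(TPM + 1).

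Sox2 lies inside the long noncoding gene Sox2ot on the same strand, so reads of the shared part could have been assigned to either. Sox2ot itself was not called in any tumor, with 32.4, 17.2 and 12.7 CPM in naïve brain, 18.7, 9.16 and 14.98 CPM in CT2A and 6.01, 8.40 and 6.07 CPM in GL261. It stood at 8.03, 5.55 and 63.7 CPM in 005 and 25.3, 102 and 30.3 CPM in Mut3. The ratio of Sox2 to Sox2ot, both as TPM, was 0.422 to 1.79 in naïve brain and 4.45 to 9.23 in GL261. It was 2.28 to 8.13 in CT2A, 0.347 to 7.23 in 005 and 0.875 to 6.24 in Mut3, so the ratio was not fixed between the libraries. The lowest ratio was in 005 replicate 3.

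Prom1 and Msi1, the membrane and the RNA-binding marker of neural stem cells, did not follow Nes and Sox2. Prom1 was 8.77, 11.7 and 5.95 CPM in naïve brain and 2.93, 1.09 and 2.58 CPM in CT2A, with no overlap. It was 5.18, 6.79 and 7.04 CPM in GL261, 4.74, 8.81 and 11.7 CPM in 005 and 7.16, 5.91 and 5.19 CPM in Mut3, each of which overlapped naïve brain. In CT2A the log2 fold change was −1.98 ± 0.46 (adjusted p = 0.00506), a 3.96-fold lower level, and this call held in all 13 alternatives that could be run. The CT2A libraries held 24, 7 and 20 counts of Prom1, so its level there rests on few reads. The minimum of 10 counts per sample removed Prom1 from the test. CT2A was also below 005 by 1.92 (SE 0.46, adjusted p = 0.0323) and below Mut3 by 1.45 (SE 0.45, adjusted p = 0.0484) on the log2 scale. The difference between CT2A and 005 was lost without 1 CT2A library (replicate 2 or 3) or without 005 replicate 2 or 3, and that between CT2A and Mut3 was lost without any 1 of the 6 libraries. In the other tumors the adjusted p against naïve brain was 0.349 to 0.935. The noncoding gene Gm42716 overlaps Prom1 on the same strand, with at most 88.0 counts in a library.

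Msi1 was 6.53, 15.9 and 5.68 CPM in naïve brain and 4.64, 3.26 and 2.33 CPM in CT2A, where all libraries were below naïve brain. It was 5.39, 8.57 and 11.3 CPM in GL261, 7.62, 10.4 and 9.54 CPM in 005 and 5.03, 6.04 and 3.43 CPM in Mut3. The level in naïve replicate 2 was above that of every other library, and the rest of naïve brain lay within the range of the tumors. In CT2A the log2 fold change was −1.45 ± 0.47 (adjusted p = 0.0234), and it was −0.96 ± 0.46 (adjusted p = 0.11) in Mut3. The CT2A call was lost in 5 of 14 alternatives, among them without naïve replicate 2, without CT2A replicate 2 and without CT2A replicate 3. Over these 14 alternatives the log2 fold change of Msi1 in CT2A ran from −1.73 to −0.63. Msi1 was not called different among the tumors (adjusted p = 0.0735). Of 8 astrocyte genes, 5 were lower in CT2A (Slc1a2, Aldoc, Aldh1l1, S100b and Gjb6), with sums of 401 to 805 CPM against 2310 to 2400 CPM in naïve brain, and all 10 neuron genes were lower there. Without CT2A replicate 2, 0 of the astrocyte genes and 3 of the neuron genes were called lower, and without CT2A replicate 3, 0 and 5. Prominin-1 is also found on ependymal cells, of whose 6 genes 4 were tested and 0 were called in CT2A (1 lower at an unadjusted p under 0.05, 0 by DESeq2), with sums of 10.9 to 37.7 CPM against 27.9 to 50.7 CPM. Without CT2A replicate 1, Ccdc153 was called lower there. In Mut3, where Prom1 and Msi1 were not called, all 10 neuron genes were lower. Of the astrocyte genes there, 4 were lower (Slc1a2, Aqp4, Gjb6 and Gja1) and 1 higher (Gfap). Of the ependymal genes 3 were lower in Mut3 (Dynlrb2, Tmem212 and Ccdc153), and 1 or 0 of these were left without any 1 naïve or Mut3 library. The part of these cells in the lower Prom1 and Msi1 was not tested.

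**Figure D2:**
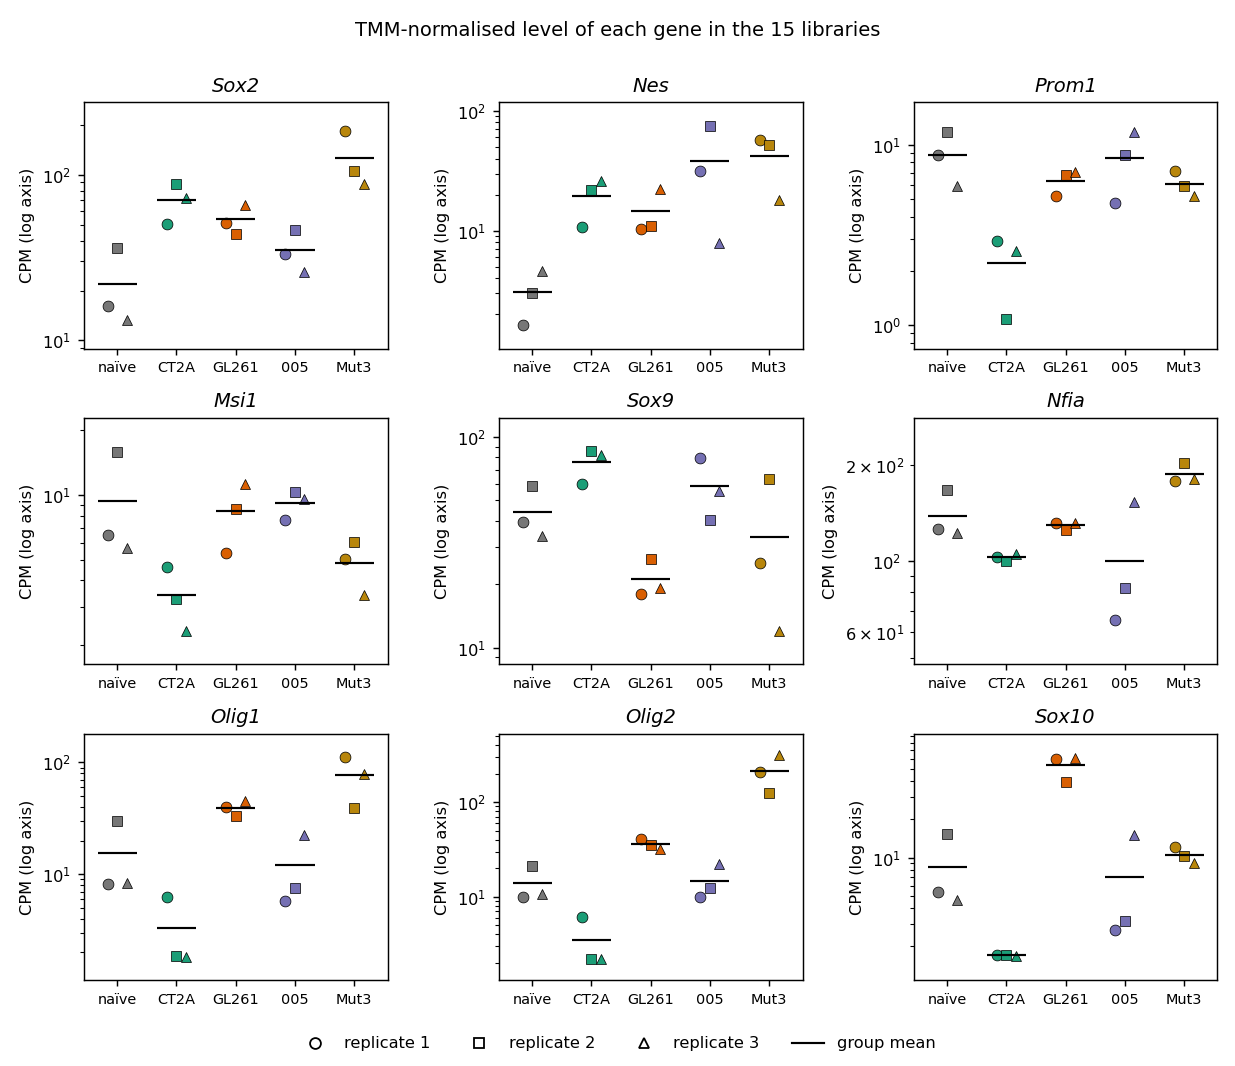
Level of each of the 9 genes in the 15 libraries (CPM after TMM normalisation, log axis), with a symbol for the replicate number and a bar at the group mean. The 3 Mut3 libraries stand apart for Olig2 (124 to 316 CPM), the GL261 libraries for Sox10 (39.6 to 60.5 CPM) and the CT2A libraries lie lowest for Prom1 and Sox10.

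The gliogenic factors Sox9 and Nfia were not called against naïve brain in any tumor by edgeR with all libraries, but Sox9 differed between the tumors (adjusted p = 0.0361). Sox9 was 39.6, 58.3 and 33.8 CPM in naïve brain, 59.6, 85.7 and 82.2 CPM in CT2A and 18.03, 26.5 and 19.2 CPM in GL261. The 005 tumors held 79.8, 40.6 and 55.3 CPM and Mut3 25.2, 63.04 and 11.96 CPM. All CT2A libraries were above naïve brain and all GL261 libraries below it, and the Mut3 libraries spread from the lowest level of any library to above naïve brain. Relative to naïve brain, the log2 fold change was 0.79 ± 0.47 (adjusted p = 0.19) in CT2A, where the sign turned with limma on log2(TPM + 1) (−0.15), and −1.05 ± 0.48 (adjusted p = 0.116) in GL261, where Sox9 was called lower with limma on log2(TPM + 1) (−1.12, adjusted p = 0.02). It was 0.42 ± 0.47 (adjusted p = 0.556) in 005, where the sign also turned with limma, and −0.4 ± 0.47 (adjusted p = 0.525) in Mut3. CT2A exceeded GL261 by 1.83 ± 0.48 on the log2 scale (adjusted p = 0.0317), a 3.57-fold difference. This call was lost without CT2A replicate 2 or 3 and without any 1 of the GL261 libraries, with library size in place of TMM and with limma on log2(TPM + 1). Without Mut3 replicate 2, the high library of that group, Sox9 was called lower in Mut3 than in naïve brain, CT2A and 005.

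Nfia varied least of the 9 genes. It was 126, 167 and 122 CPM in naïve brain, 103, 101 and 105 CPM in CT2A and 132, 125 and 131 CPM in GL261. It was 65.6, 82.7 and 154 CPM in 005 and 179, 203 and 181 CPM in Mut3. The 3 CT2A libraries were within a few CPM of each other and below naïve brain, and the 3 Mut3 libraries were above every other library. The log2 fold changes over naïve brain ran from −0.46 ± 0.29 (adjusted p = 0.271) in 005 to 0.44 ± 0.29 (adjusted p = 0.235) in Mut3, where the sign turned with limma on log2(TPM + 1). Nfia was lower in 005 than in Mut3 by 0.9 on the log2 scale with an adjusted p of 0.0386, which is below the fold asked for, and without 005 replicate 3 it was called. The coding gene E130114P18Rik overlaps Nfia on the opposite strand, with up to 338.9 counts in a library. Whether the counting used the strand is not given in the sources used here.

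Olig2 differed most widely between the tumors. It was 9.996, 20.9 and 10.5 CPM in naïve brain and 207, 124 and 316 CPM in Mut3. It was 41.04, 35.4 and 32.3 CPM in GL261, 9.991, 12.2 and 22.0 CPM in 005 and 6.11, 2.17 and 2.20 CPM in CT2A. Mut3 lay above GL261, GL261 above naïve brain and 005, and CT2A below them all, with no overlap at any of these steps. The log2 fold change over naïve brain was 3.96 ± 0.51 (adjusted p = 0.000203) in Mut3, a 15.6-fold higher level, and the call held in all 14 alternatives, with a log2 fold change of 4.57 without naïve replicate 2. It was 1.39 ± 0.47 (adjusted p = 0.0457) in GL261 and −1.97 ± 0.5 (adjusted p = 0.00721) in CT2A. In 005 it was 0.1 ± 0.46 (adjusted p = 0.903), where the sign turned with library size in place of TMM and with limma on log2(TPM + 1). The GL261 call was lost in 8 of 14 alternatives, and the CT2A call in 1, without naïve replicate 2 (adjusted p = 0.0558).

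Between tumors, Olig2 in CT2A was 61.0-fold below Mut3 (log2 fold change −5.93 ± 0.57, adjusted p = 2.74e-05) and 10.3-fold below GL261 (−3.36 ± 0.51, adjusted p = 0.00138). CT2A replicate 1 was the highest of its group, and without it the log2 fold changes were −6.61 against Mut3, −4.03 against GL261, −2.74 against 005 and −2.64 against naïve brain, all of them called. Mut3 was above 005 by 14.6-fold (005 against Mut3, −3.87 ± 0.51, adjusted p = 0.000417) and above GL261 by 5.95-fold (GL261 against Mut3, −2.57 ± 0.48, adjusted p = 0.00334). Olig2 in CT2A was also lower than in 005 (−2.06 ± 0.49, adjusted p = 0.0321), a call that was lost without CT2A replicate 2 or 3 or 005 replicate 3. Across the 4 tumors the adjusted p was 1.44e-05.

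Olig1 lies 41094 bases downstream of Olig2 on chromosome 16, on the same strand. It was 8.16, 29.6 and 8.38 CPM in naïve brain and 112, 39.01 and 78.98 CPM in Mut3. It was 40.2, 33.3 and 45.01 CPM in GL261, 5.77, 7.61 and 22.6 CPM in 005 and 6.23, 1.86 and 1.81 CPM in CT2A. The order of the groups was that of Olig2 except that naïve brain and 005 changed places, and the Mut3 and GL261 libraries overlapped. The log2 fold change over naïve brain was 2.32 ± 0.66 (adjusted p = 0.0126) in Mut3, 1.36 ± 0.64 (adjusted p = 0.129) in GL261 and −2.2 ± 0.68 (adjusted p = 0.0194) in CT2A. Without naïve replicate 2, Olig1 was called higher in GL261 (log2 fold change 2.4, adjusted p = 0.0312) and no longer lower in CT2A (−1.1, adjusted p = 0.194), its log2 fold change in Mut3 was 3.38, and the CT2A call was also lost without CT2A replicate 2 or 3. The Mut3 call was lost without naïve replicate 1, without naïve replicate 3 and with limma on log2(TPM + 1). Among the tumors the adjusted p was 0.00179, with CT2A 23.0-fold below Mut3 (adjusted p = 0.00116) and 11.8-fold below GL261 (adjusted p = 0.0071), which are log2 fold changes of −4.52 and −3.56. Without CT2A replicate 1 these were −5.37 and −4.41, and −3.04 against naïve brain, all of them called. Without 005 replicate 3, Olig1 was also called higher in GL261 than in 005 (log2 fold change 2.55, adjusted p = 0.037), and 005 against Mut3 was −3.58 in place of −2.67. As TPM, which is per length, Olig2 stood at 1.27 to 2.76 times Olig1 in Mut3, at 0.679 to 0.819 times in CT2A and at 0.496 to 0.733 times in GL261. In naïve brain the ratio was 0.487 to 0.871 and in 005 it was 0.671 to 1.19.

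Sox10 parted from the OLIG genes in Mut3. It was 5.30, 15.2 and 4.60 CPM in naïve brain and 59.3, 39.6 and 60.5 CPM in GL261. It was 12.1, 10.3 and 9.06 CPM in Mut3, 2.68, 3.14 and 15.1 CPM in 005 and 1.71, 1.71 and 1.68 CPM in CT2A. The GL261 libraries were above all others and the CT2A libraries below all others, while the Mut3 libraries lay inside the range of naïve brain. Relative to naïve brain, the log2 fold change was 2.67 ± 0.61 (adjusted p = 0.00793) in GL261, a call that held in all 14 alternatives (log2 fold change 3.56 without naïve replicate 2), and −2.29 ± 0.64 (adjusted p = 0.0122) in CT2A. It was 0.33 ± 0.59 (adjusted p = 0.68) in Mut3 and −0.25 ± 0.59 (adjusted p = 0.795) in 005, and the sign in Mut3 turned with limma on log2(TPM + 1). Without 005 replicate 3, Sox10 was called lower in 005 (−1.59, adjusted p = 0.0171), and with naïve replicate 2 left out as well it was not (−0.65, adjusted p = 0.156). The CT2A call was lost without naïve replicate 2 (−1.33, adjusted p = 0.102). With naïve replicate 2 and 005 replicate 3 both left out, Sox10 was called higher in Mut3. The CT2A libraries held 14, 11 and 13 counts of Sox10, so its level there rests on few reads.

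GL261 exceeded CT2A in Sox10 by 31.0-fold (CT2A against GL261, log2 fold change −4.95 ± 0.69, adjusted p = 0.000708), 005 by 7.53-fold (2.91 ± 0.61, adjusted p = 0.0189) and Mut3 by 5.06-fold (2.34 ± 0.59, adjusted p = 0.0165). CT2A was below Mut3 by 2.61 on the log2 scale (SE 0.64, adjusted p = 0.0142), a call that was lost without CT2A replicate 2 or 3. The difference from 005 was lost without GL261 replicate 1 or 3 or without 005 replicate 1 or 2, and it was 4.17 on the log2 scale without 005 replicate 3. The difference from Mut3 was lost without GL261 replicate 3 or Mut3 replicate 2. As TPM, Olig2 was 10.3 to 29.8 times Sox10 in Mut3 and 0.456 to 0.764 times Sox10 in GL261, with no overlap. In naïve brain the ratio was 1.19 to 2.01, in CT2A 1.06 to 3.16 and in 005 1.25 to 3.31.

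**Figure D3:**
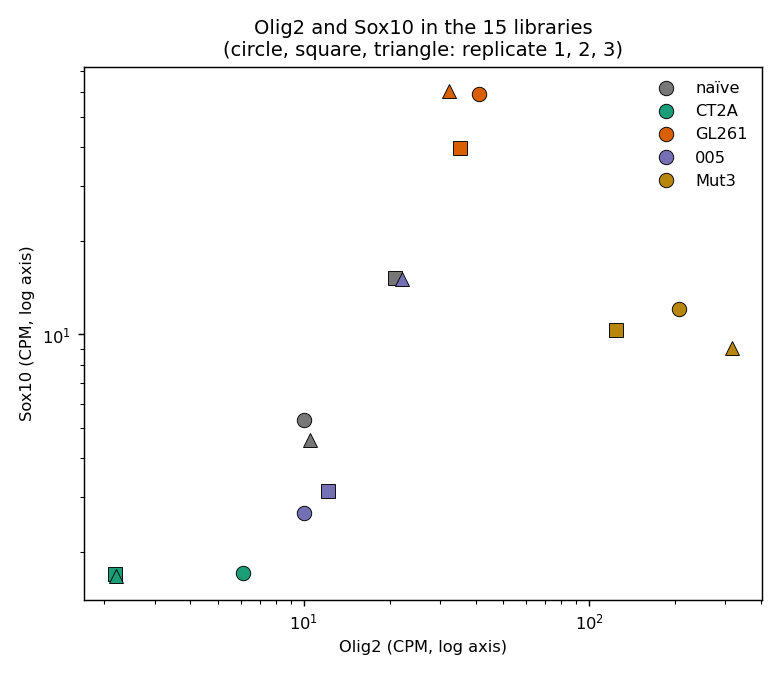
Olig2 against Sox10 in the 15 libraries (CPM after TMM normalisation, both axes logarithmic), with colors for the groups and symbols for the replicate number. The Mut3 libraries lie far to the right at naïve levels of Sox10 (9.06 to 12.1 CPM), the GL261 libraries lie at the top, and 005 replicate 3 lies beside naïve replicate 2.

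Markers of mature cells of the lineage were read beside these factors. Of 10 myelinating oligodendrocyte genes, 7 were lower in Mut3 than in naïve brain and 0 were higher, and their sum was 322 to 531 CPM there against 1770 to 4380 CPM in naïve brain. In GL261, 0 of the 10 were called in either direction (0 by DESeq2, 1 lower at an unadjusted p under 0.05) and the sum was 1170 to 1870 CPM. In CT2A, 4 were lower (Cnp, Mag, Mbp and Opalin), with sums of 247 to 1300 CPM. The CT2A calls went to 1 (Opalin) without naïve replicate 2 and to 0 without CT2A replicate 2 or 3. In 005 the sum was 681, 476 and 5010 CPM in replicates 1, 2 and 3, and 0 genes were called (0 by DESeq2 and 0 at an unadjusted p under 0.05), but 7 were called lower without 005 replicate 3. Without naïve replicate 2, 5 were lower in Mut3 and Cnp was higher. No gene of the list was at 0 in a whole group. The part of these cells in the Olig1, Olig2 and Sox10 results was not tested beyond these values.

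SOX9 and SOX10 belong to the SOXE family together with SOX8, and the family member that carried most of the TPM differed by line. Sox9 made up 80.7%, 87.4% and 82.8% of the summed SOXE TPM in the CT2A libraries. Sox10 made up 91.0%, 82.0% and 90.3% in the GL261 libraries. Sox8 made up 83.3%, 71.0% and 85.8% in the Mut3 libraries. In naïve brain none of the genes exceeded 44.1% in any library, and 005 was mixed, with Sox9 at 71.4%, 54.8% and 32.0%. The sum of the family was 2.9 to 3.16 TPM in CT2A, 9.71 to 15.1 TPM in GL261, 15.4 to 19.6 TPM in Mut3 and 4.2 to 17.2 TPM in naïve brain, and 4.02, 2.92 and 10.7 TPM in the 005 libraries. Sox8 itself was 9.996, 21.9 and 7.30 CPM in naïve brain and 158, 104 and 128 CPM in Mut3, a log2 fold change of 3.31 ± 0.47 (adjusted p = 0.000353). It was 2.08, 1.24 and 2.97 CPM in CT2A, where it was called lower (−2.62 ± 0.49, adjusted p = 0.00166), and lower in GL261 as well (−1.33 ± 0.46, adjusted p = 0.0496), a call that was lost without any 1 of the GL261 libraries and without naïve replicate 1 or 2.

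**Figure D4:**
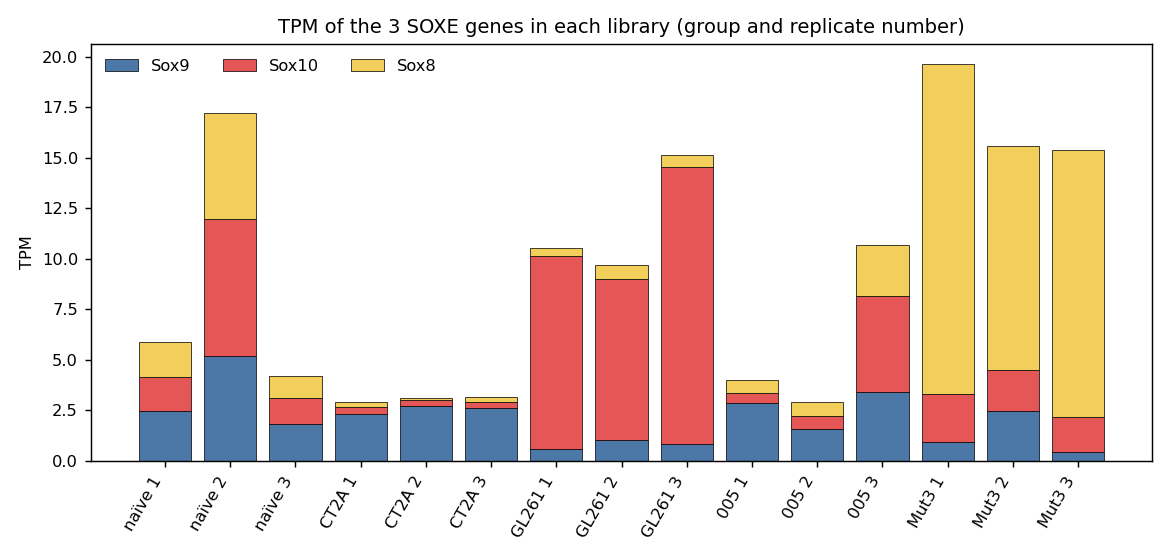
TPM of Sox9, Sox10 and Sox8 stacked for each of the 15 libraries, named by group and replicate number. Sox9 fills most of each CT2A bar (80.7% to 87.4%), Sox10 most of each GL261 bar (82.0% to 91.0%) and Sox8 most of each Mut3 bar (71.0% to 85.8%).

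Compared with each other, the tumors differed in 6 of the 9 genes (Sox2, Sox9, Prom1, Olig1, Olig2 and Sox10) at an adjusted p under 0.05, where 26.8% of all genes tested did. CT2A had 1 gene higher than GL261 (Sox9), against 4.15% of genes tested, and 3 lower (Olig1, Olig2 and Sox10), against 3.62%. CT2A had 0 genes higher than 005, against 2.12%, and 2 lower (Prom1 and Olig2), against 1.99%. CT2A had 0 genes higher than Mut3, against 6.61%, and 4 lower (Prom1, Olig1, Olig2 and Sox10), against 6.15%. GL261 had 1 gene higher than 005 (Sox10), against 1.73%, and 0 lower, against 0.887%. GL261 had 1 gene higher than Mut3 (Sox10), against 11.1%, and 2 lower (Sox2 and Olig2), against 6.10%. The 005 tumors had 0 genes higher than Mut3, against 14.0%, and 3 lower (Sox2, Olig1 and Olig2), against 5.76%. Without 005 replicate 3, Olig1 was called higher in GL261 than in 005, and Nfia and Sox10 were called lower in 005 than in Mut3 as well. The 2 calls between CT2A and 005 were both lost without 005 replicate 3, without CT2A replicate 2 and without CT2A replicate 3, and with the replicate number as a block. Without 005 replicate 1, Sox10 was called lower in CT2A than in 005, and without Mut3 replicate 1 Olig2 was the 1 call left between 005 and Mut3. Where edgeR called 0 genes between tumors in a direction, DESeq2 also called 0. At an unadjusted p under 0.05, there was 1 gene each for CT2A above 005, CT2A above Mut3 and GL261 below 005, and 0 for 005 above Mut3.

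Ranked by group mean, Mut3 was first for Sox2, Nes, Olig1, Olig2 and Nfia, GL261 for Sox10, CT2A for Sox9, and naïve brain for Prom1 and Msi1. CT2A was last for Prom1, Olig1, Olig2, Msi1 and Sox10. Most neighbours in these orders did not differ by the test. The steps that did were Nes from GL261 to naïve brain, Prom1 from Mut3 to CT2A, Olig2 from Mut3 to GL261 and from naïve brain to CT2A, and Sox10 from GL261 to Mut3. On the per-length scale, Olig2 in Mut3 was the highest mean of any of the genes (35.5 ± 15.3 TPM, SD, n = 3), followed by Olig1 there (18.3 ± 8.62 TPM), Sox2 there (11.4 ± 4.61 TPM) and Sox10 in GL261 (10.4 ± 2.93 TPM). In naïve brain Olig1 led with 7.55 ± 7.76 TPM, a spread made by naïve replicate 2, and Nes was lowest with 0.29 ± 0.125 TPM.

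The relatives of the 9 genes in the SOX, NFI and Musashi families were read from a list of 12 genes, of which 11 passed the filter (Sox3 did not). In CT2A, 2 were higher (Sox4 and Nfic) and 7 lower (Sox1, Sox6, Sox8, Sox11, Sox21, Nfix and Msi2). The Nfix call there was lost without naïve replicate 2 or CT2A replicate 3. In Mut3, 7 were higher (Sox4, Sox6, Sox8, Sox11, Sox21, Nfib and Nfic) and 1 lower (Sox1). The Sox11 call there was lost without any 1 naïve library and without Mut3 replicate 1 or 3, and the Nfic call without naïve replicate 1. In GL261, Sox4 and Sox6 were higher and Sox1 and Sox8 lower, and in 005 Sox4 was higher and 0 were lower (1 by DESeq2, 2 at an unadjusted p under 0.05). Without 005 replicate 3, Nfix and Sox5 were called lower in 005 and Nfic higher. In GL261 the lower calls on Sox1 and Sox8 were both lost without naïve replicate 1 or 2 or GL261 replicate 1 or 3. The higher call on Sox6 in GL261 was lost without naïve replicate 2 or GL261 replicate 3. The list had a median log2 fold change of −1.7 (CT2A), −0.63 (GL261), 0.09 (005) and 1.37 (Mut3). Of all genes tested, 19.0% were higher and 20.2% lower in CT2A, and 14.6% and 7.77% in GL261. These shares were 11.6% and 1.05% in 005 and 17.9% and 19.8% in Mut3. They also stand beside the counts of the stem cell and progenitor lists below. Sox4, a SOXC factor of progenitors, was 14.1, 16.7 and 5.41 CPM in naïve brain and 77.2, 78.7 and 67.4 CPM in CT2A. It was 65.3, 51.6 and 76.2 CPM in GL261, 102, 65.9 and 24.0 CPM in 005 and 141, 110.3 and 92.5 CPM in Mut3, above naïve brain in every tumor library. Its log2 fold change ran from 2.4 (adjusted p = 0.00522) in 005 to 3.24 (adjusted p = 0.000475) in Mut3. Nfib, another NFI factor of gliogenesis, was 2.4-fold higher in Mut3 (adjusted p = 0.0048) and was not called elsewhere. Msi2 fell in CT2A (32.6, 20.96 and 10.1 CPM against 40.6, 58.5 and 34.1 CPM in naïve brain, adjusted p = 0.0498), a call that was lost without any 1 naïve library and without CT2A replicate 2 or 3.

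Of 14 other neural stem cell and radial glia genes, 4 were higher (Cd44, Hes1, Vim and Bmi1) and 9 lower in CT2A. The Bmi1 call there was lost without naïve replicate 3 or CT2A replicate 1 or 2. The lower calls in CT2A went to 7 without naïve replicate 2 or CT2A replicate 1 or 2, and to 8 without CT2A replicate 3. In GL261, 2 were higher (Cd44 and Vim) and 2 lower (Lhx2 and Hopx). In 005, 2 were higher (Cd44 and Vim) and 0 lower, where DESeq2 called 1 lower and 3 were lower at an unadjusted p under 0.05. Without 005 replicate 3, 6 were called lower in 005 (Fabp7, Hes5, Id4, Lhx2, Pou3f2 and Slc1a3). The lower calls in GL261 were both lost without naïve replicate 1 or 2 or GL261 replicate 1 or 3. In Mut3, 3 were higher (Cd44, Fabp7 and Vim) and 4 lower (Lhx2, Id4, Pax6 and Hopx). The Pax6 call there was lost without naïve replicate 3 or Mut3 replicate 2. The list had a median log2 fold change of −2.5 (CT2A), −0.81 (GL261), −0.72 (005) and −0.54 (Mut3). Vim, the filament vimentin that pairs with nestin, rose in every tumor, from 31.4, 53.6 and 31.4 CPM in naïve brain to 856, 1101 and 979 CPM in CT2A, 776, 706 and 785 CPM in GL261, 1171, 1613 and 239 CPM in 005 and 764, 860.3 and 269 CPM in Mut3. Its log2 fold change was 4.02 to 4.7, and 005 replicate 3 and Mut3 replicate 3 were the lowest tumor libraries. Cd44, an adhesion receptor, was the other gene of the list higher in all 4 tumors. Vimentin and CD44 are also made by leukocytes and vessel cells. Of 6 leukocyte genes 4 were tested (Itgb2, Cd68, Ptprc and Itgam), all 4 were higher in CT2A, GL261 and 005, and in Mut3 0 were higher and Itgam was lower. Cd44 was 29.3-fold higher in CT2A and 4.63-fold higher in Mut3, and Vim was 25.2-fold and 16.3-fold higher. The part of these cells in the Vim and Cd44 results was not tested. Fabp7, the brain lipid-binding protein of radial glia, was higher in Mut3 (2.81-fold, adjusted p = 0.028, lost without naïve replicate 1 or Mut3 replicate 2 or 3) and lower in CT2A (6.0-fold, adjusted p = 0.00242). Slc1a3, the glutamate transporter GLAST of radial glia and astrocytes, was lower in CT2A (5.32-fold, adjusted p = 0.0052) and was not called in the other tumors with all libraries.

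Of 11 oligodendrocyte progenitor genes 10 were tested (C1ql1 was not). In Mut3, 4 were higher (Nkx2-2, Cspg4, Neu4 and Gpr17) and 1 lower (Cspg5). In CT2A, 3 were higher (Nkx2-2, Pdgfra and Cspg4) and 6 lower (Bcan, Cspg5, Gpr17, Lhfpl3, Neu4 and Ptprz1). Cspg4 there was lost without naïve replicate 1 or 3 or CT2A replicate 3. The Neu4 call was lost without any 1 naïve library and without CT2A replicate 1 or 2. In GL261, 2 were higher (Nkx2-2 and Zfp488) and 0 lower, where DESeq2 called 2 lower and 2 were lower at an unadjusted p under 0.05. In 005, 1 was higher (Nkx2-2) and 0 lower (0 by DESeq2, 3 at an unadjusted p under 0.05). Without 005 replicate 3, 5 were called lower in 005 (Bcan, Cspg5, Lhfpl3, Pdgfra and Ptprz1), and the Nkx2-2 call there was lost without 005 replicate 1 or 2 or naïve replicate 1 or 3. Without naïve replicate 2, Mut3 had 6 higher, Bcan and Pdgfra among them, and 0 lower. Zfp488 in GL261 was lost without any 1 GL261 library and without naïve replicate 1 or 3. Its level was 0, 1.25 and 0.27 CPM in naïve brain, below or near the floor of 3 counts, and 2.49, 2.91 and 3.76 CPM in GL261. Over the list the median log2 fold change was −2.26 (CT2A), −0.07 (GL261), −0.44 (005) and 1.12 (Mut3). Gpr17, a receptor of progenitors that commit to myelination, was 183, 56.1 and 125 CPM in Mut3 and 5.10, 12.2 and 4.60 CPM in naïve brain, a 16.6-fold difference (adjusted p = 0.000336). Pdgfra, the growth factor receptor of these progenitors, was 43.96, 53.1 and 53.3 CPM in CT2A and 16.9, 21.7 and 13.8 CPM in naïve brain, so it was 2.87-fold higher (adjusted p = 0.0052) where Olig1, Olig2 and Sox10 were lower. In Mut3 it was 40.1, 18.9 and 38.3 CPM (log2 fold change 0.89, adjusted p = 0.0563). Ptprz1, a receptor phosphatase, was 401, 137 and 203 CPM in Mut3 and 103, 107 and 82.5 CPM in naïve brain (adjusted p = 0.117), and it was lower in CT2A (adjusted p = 0.0193, lost without naïve replicate 2 or CT2A replicate 2 or 3). Cspg5, a neural proteoglycan, was lower in CT2A (15.9-fold, adjusted p = 0.00106) and in Mut3 (3.91-fold, adjusted p = 0.0221, lost without naïve replicate 2 or any 1 Mut3 library).

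**Figure D5:**
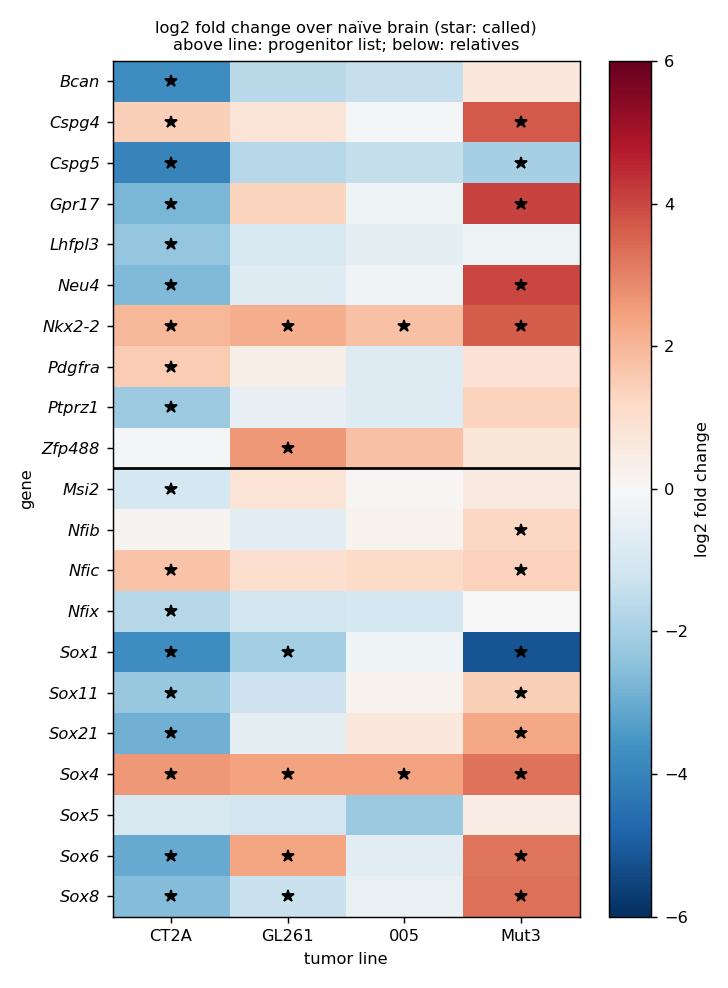
Log2 fold change over naïve brain (color scale) of the 10 tested oligodendrocyte progenitor genes, above the line, and the 11 tested relatives, below it, in the 4 tumors; a star marks a call. Nkx2-2 and Sox4 are starred in every tumor, and CT2A and Mut3 have opposite colors in many rows, such as Gpr17, Sox6 and Sox8.

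The genes whose pattern was most like that of each of the 9 were found by the root mean square difference of log2 CPM, each gene centred on its own mean over the 15 libraries. For Olig2 these were Gpr17 (difference 0.51), Lims2 (0.66) and Olig1 (0.68), where Olig2 itself varied by 2.01 around its mean. Lims2 overlaps Gpr17 on the opposite strand, so they may share reads. For Olig1 they were Bcas1 (0.42), Col9a3 (0.61) and Chadl (0.62), and for Sox10 they included Chadl (0.8) and Rlbp1 (0.81). For Nes they were Hk2 (0.48), Tle6 (0.56) and Gng12 (0.61), and for Sox2 Phf14 (0.3), Anp32b (0.39) and Naa16 (0.4). For Sox9 they were Gm4524 (0.5), Prss23 (0.51) and Dusp18 (0.51). For Prom1 they were Pwwp2b (0.31), Mindy2 (0.31) and Prex1 (0.32), for Msi1 Cdk19 (0.31), Trim35 (0.32) and Abhd17a (0.32), and for Nfia Fars2 (0.23), Zfp74 (0.26) and Gcdh (0.27). Within the 9 genes the closest pairs were Prom1 with Msi1 (0.51) and Olig1 with Olig2 (0.68), and the most distant pair was Sox9 with Olig2 (2.67).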

How the data were processed

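RNA from naïve brain and 4 tumor lines (3 mice each) was sequenced. The authors aligned reads with STAR 2.4.2a to the GENCODE mouse genome and marked duplicates with Picard. Their processing notes name Salmon, DESeq2 1.18.1 and mm10, and the role of Salmon and the annotation release are not given in the sources used here. The authors deposited expected counts (estimated, not normalized) and TPM values (scaled by gene length and library), which differ by 1 factor per gene and 1 per library and so are not independent. Of 46679 identifiers 46269 received a symbol from GENCODE M21 (GRCm38). Groups and replicate numbers came from the sample labels.

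Expected counts were rounded and tested with edgeR 4.0.16 in R 4.3.3 (filterByExpr, TMM, quasi-likelihood, group means, all 15 samples, 10 residual degrees of freedom). Log2 CPM used a prior count of 2. The steps were tested on simulated counts. The 9 genes and all lists were chosen with earlier results of these data known. Named beyond the 9 were, by rule, the 3 genes of each list with the highest mean log2 CPM, every gene behind a count of 5 or fewer, and the 3 genes most like each of the 9 (for Sox10, 2 of its 3, ranked 2 and 3). Sox6, Sox8, Cd44 and Gpr17, and the larger lists of calls, were named after their values were seen. Alternatives were DESeq2 1.42.0, library size, no filter, a minimum of 10 counts per sample, a replicate block, only the samples compared, limma 3.58.1 on log2(TPM + 1), each replicate left out, and, chosen after seeing the data, naïve replicate 2 and 005 replicate 3 left out together. Floors of 3 counts cover counting error only. Motifs were searched as exact letters on both strands. Protein sequences were not used here. Some genes of the lists or named by the rule are not reported here.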

Additional observations from a re-analysis of the deposited data

Results flagged for a closer look

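For 6 of the 9 genes the difference from naïve brain was not the same in the 4 tumors, by edgeR's test of the differences among the tumors themselves. The adjusted p was 1.44e-05 for Olig2, 0.000458 for Sox10, 0.00179 for Olig1, 0.019 for Sox2, 0.0323 for Prom1 and 0.0361 for Sox9. Groups of 3 mice are too small for the test of single outlying libraries.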

How the results depend on the processing

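Of 16 differences from naïve brain that were called, the direction held in every alternative run, and the call held in 180 and was lost in 39 gene-by-alternative fits. Of 20 that were not called, the sign turned in 30 fits, 9 became calls and 238 stayed as they were. The cause was not tested unless stated. Library size in place of TMM shifted the median log2 fold change of all genes by −0.196 in CT2A. It left 2 of the 9 genes called in GL261 against naïve brain (Nes and Sox10). Limma on log2(TPM + 1) gave 2 calls there, Sox10 higher and Sox9 lower, and it left 2 for CT2A against Mut3, 0 for CT2A against 005 and 3 differing among the tumors. At least 10 counts in every sample removed Nes and Prom1 from the test and left 0 in 005 and 1 for CT2A against 005. Fitting only the samples compared left 0 in 005, 0 for CT2A against 005 and 0 for GL261 against 005, and DESeq2 gave 4 for CT2A against 005. With naïve replicate 2 and 005 replicate 3 left out, 2 were called in 005, 0 for CT2A against 005, 3 for GL261 against 005 and 5 for 005 against Mut3.

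The replicate numbers did not pair the samples: 1 of 30 same-numbered pairs had a correlation of deviations over 0.1 (−0.331 to 0.262). A replicate block left 2 genes called in GL261 and 0 for CT2A against 005, and Msi1 in 005 turned to 0.049.

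With each replicate left out in turn, the number of genes called ranged from 3 to 7 for CT2A against naïve brain (3 without naïve replicate 2), from 1 to 4 for GL261, from 1 to 2 for 005, from 0 to 3 for CT2A against 005 and from 2 to 4 for CT2A against Mut3. It ranged from 0 to 2 for GL261 against 005, from 1 to 2 for GL261 against Mut3, from 1 to 5 for 005 against Mut3, and from 3 to 8 for differences among the tumors. The log2 fold change in 005 ranged from −0.45 to 0.28 for Prom1, −1.27 to 0.61 for Olig1, −0.39 to 0.605 for Olig2, −0.28 to 0.69 for Msi1 and −1.59 to 0.55 for Sox10. In GL261 it ranged from −0.501 to 0.61 for Msi1 and −0.19 to 0.203 for Nfia, and in Mut3 from −1.23 to 0.032 for Sox9.

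The sign of uncalled log2 fold changes turned as follows. In 005, Olig2 was −0.025 with library size and −0.38 with limma, Msi1 was 0.031 and Prom1 0.0014 with only the samples compared, Msi1 was 0.67 with both libraries left out, and Sox9 was −0.15 with limma. In GL261, Nfia was 0.029 with only the samples compared and 0.13 with both libraries left out, when Msi1 was 0.53. In CT2A, Sox9 was −0.15 with limma. In Mut3, limma gave −0.29 for Nfia and −0.26 for Sox10, and Sox9 was 0.0044 with both libraries left out.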
